A study of Drosophila melanogaster with 18 samples.

Results

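Glycolysis is the chain of cytosolic enzymes that splits glucose into pyruvate and yields ATP and NADH on the way. The transcripts followed here are those of 10 genes given by name, *Hex-A*, *Pgi*, *Pfk*, *Ald1*, *Tpi*, *Gapdh1*, *Gapdh2*, *Pgk*, *Eno* and *PyK*, which together serve all steps of the pathway but that of the phosphoglycerate mutase. All 10 were found in the count table of 23932 features, and all 10 passed the filter on low counts that left 11051 features to test. Levels are given as CPM, the counts scaled to a common library size, after TMM scaling, which fits each library to the bulk of its genes.

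The libraries came from the whole bodies of *w1118* flies, a laboratory strain with white eyes, kept at 24 °C on sugar/yeast food. There were 6 libraries from day 0 flies, 6 from day 2 flies fed vehicle and 6 from day 2 flies that had 1 µM cycloheximide (CHX) in their food. CHX blocks the elongation step of protein translation (PT). All 3 groups share the strain. By the paper's methods, flies grew up on a cornmeal medium and moved to sugar/yeast food after they emerged as adults. Day 0 and day 2 flies therefore differ in age and in time on the sugar/yeast food, and these cannot be told apart here. The sources used here give neither the sex of the flies nor their number in a library, nor do they say that a group's libraries stem from separate cultures, so the tests measure the spread between these libraries. In each group 3 library names hold a hyphen and 3 do not. What the hyphen marks is not given, and these sets are called name series below. Library totals ran from 21495631 to 38519240 counts, and the smallest count of any of the 10 genes in any library was 3803, for *Pfk* with vehicle, so counting error was small beside the spread between libraries.

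In insects glycolysis supplies flight muscle with pyruvate and with glycerol phosphate, which carries electrons from the cytosol to mitochondria, because flight muscle makes little lactate. In adult flies its enzymes are most abundant in muscle and are also used in brain, fat body and gut. Hexokinase and phosphofructokinase catalyze the committed, regulated entry steps, and pyruvate kinase the exit step, while the enzymes between them work near equilibrium. The sugar comes from trehalose in the hemolymph and from glycogen stores.

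In tissue markers the libraries of vehicle flies differed from those of both other groups. The summed level of 19 muscle genes (structural genes of the contractile apparatus) was 83620 to 98780 CPM at day 0, 2980 to 4311 CPM with vehicle and 88230 to 103300 CPM with CHX, and none of the 19 was at 0 in a whole group. All 19 were lower with vehicle than at day 0 (edgeR, adjusted p under 0.05). By the same test 41.1% of all features tested were lower and 41.8% higher. The summed level of 10 eggshell genes was 154.2 to 313.9, 5006 to 14990 and 1.914 to 67.05 CPM in the same order. For 11 neuron and photoreceptor genes it was 2463 to 2944, 1094 to 1891 and 2531 to 2953 CPM. For 7 ovary germline genes it was 95.03 to 197.5, 776.3 to 1021 and 91.03 to 138.5 CPM. For 8 gut genes it was 1433 to 2513, 2637 to 5746 and 1482 to 2961 CPM, with overlap between vehicle and CHX. Of the gut genes 5 rose with vehicle and 1 fell. For 9 fat body genes it was 6818 to 13410, 10250 to 30780 and 8749 to 14100 CPM, with overlapping groups, but 3 of its genes rose with vehicle and 3 fell, from *Fbp1* (-13.84) and *Lsp2* (-4.38), genes of larval storage proteins and their uptake, to the yolk protein gene *Yp3* (2.31). The TMM factors were 1.235 to 1.313 with vehicle and 0.8231 to 0.9294 in the other groups, and mitochondrial transcripts held a median of 18.2% of counts at day 0, 6.61% with vehicle and 19.3% with CHX. A lower level of a transcript in whole flies can mean fewer cells of a type or less RNA in each. It can also mean more RNA from other cells, as CPM is a share of a library. These cannot be told apart here.

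Vehicle against day 0 addresses what changes in the days when PT rises, and all 10 glycolysis transcripts were lower on day 2. Their summed level was 17690 ± 702.5 CPM at day 0 (mean ± SD, n = 6) and 5539 ± 374.5 CPM with vehicle. The libraries of the groups did not overlap for any of the 10. The median log2 fold change of the 10 was -1.53, while that of all features tested was -0.0043. In the same comparison 41.1% of all features tested were lower at an adjusted p under 0.05, and 32% were lower without overlap. The test was edgeR's quasi-likelihood test over all 18 libraries with Benjamini-Hochberg adjustment. Muscle marker sums moved in the same direction, and their part in these values was not tested.

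**Figure D1:**
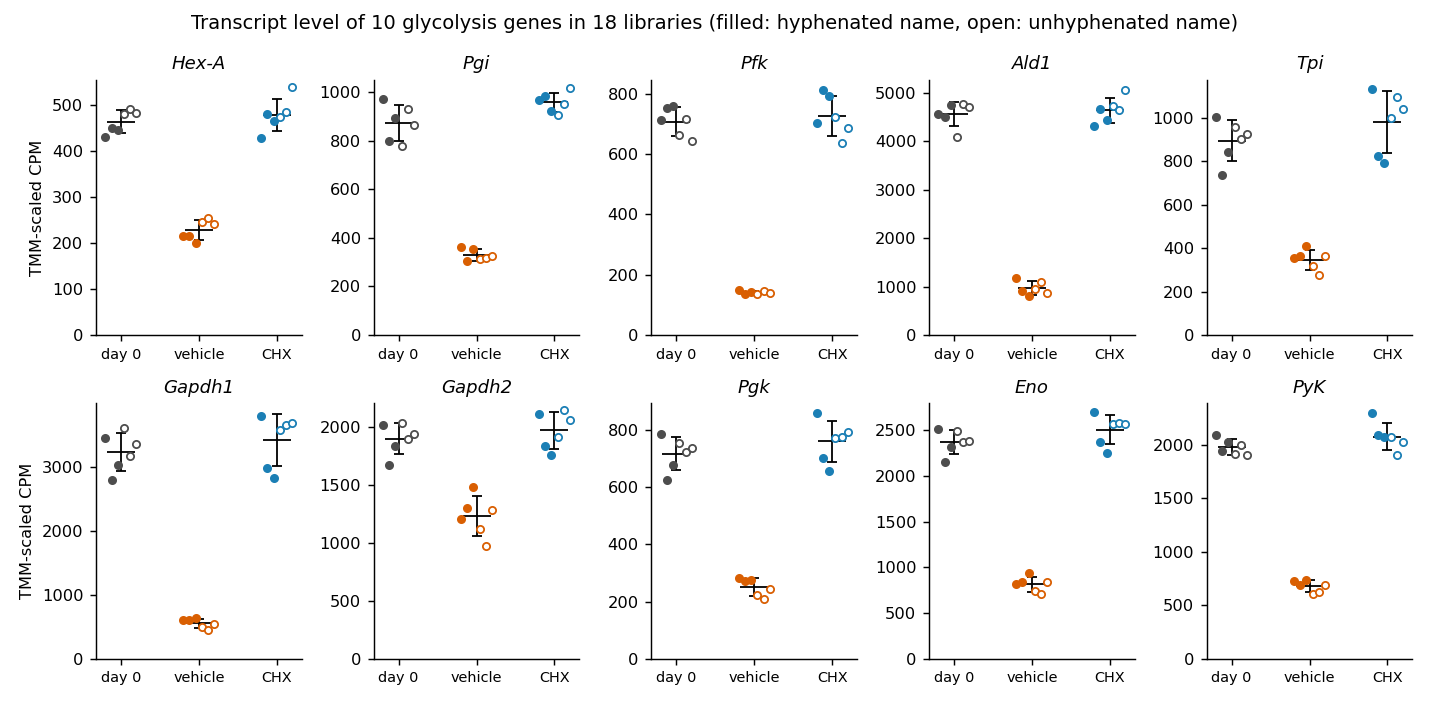
Levels of the 10 glycolysis genes in TMM-scaled CPM (vertical axes, each starting at 0) in the day 0, vehicle and CHX groups. Each point is a library, filled for a hyphenated and open for an unhyphenated library name, and the bar and whiskers are mean and SD of 6. Every vehicle library lies below every other library in every panel, and *Gapdh2* comes closest to an overlap (highest vehicle library 1479 CPM, lowest day 0 library 1673 CPM).

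Hexokinase phosphorylates glucose and so traps it in the cell. *Hex-A* (FBgn0001186, chromosome X, 9585675 to 9589813 in BDGP6.54) is the widely used hexokinase gene of the fly. Its levels at day 0 were 431.3 CPM in the lowest library, 466.5 CPM at the median and 492.7 CPM in the highest. With vehicle they were 201, 228.5 and 253.9 CPM. All vehicle libraries therefore lay below all day 0 libraries. The log2 fold change was -1.03 ± 0.062 (SE), with an adjusted p of 1.45e-11, and was the smallest of the 10 after that of *Gapdh2*. Phosphoglucose isomerase, which turns the glucose phosphate into fructose phosphate, is encoded by *Pgi* (FBgn0003074, chromosome 2R, 8910900 to 8914069). *Pgi* was at 777.3, 877.7 and 970 CPM at day 0 and at 304.7, 321.3 and 363 CPM with vehicle, again without overlap. Its log2 fold change was -1.40 ± 0.074, with an adjusted p of 1.86e-12.

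Phosphofructokinase adds the other phosphate at the cost of ATP and is the main control point of the chain. *Pfk* (FBgn0003071, chromosome 2R, 10109740 to 10117457) was at 641.7, 714.3 and 758.5 CPM in the lowest, median and highest day 0 library. With vehicle the same values were 136, 140.6 and 150.5 CPM, with an SD of 5.796 CPM, so that the libraries of this group were close together. The log2 fold change was -2.32 ± 0.070, a level 4.99-fold lower, with an adjusted p of 5.79e-16. Aldolase, encoded by *Ald1* (FBgn0000064, chromosome 3R, 26254069 to 26261591), splits the sugar into triose phosphates. *Ald1* was at 4089, 4634 and 4759 CPM at day 0. With vehicle it was at 797.5, 927.6 and 1177 CPM, so that the groups lay far apart. Its log2 fold change was -2.24 ± 0.093, with an adjusted p of 6.68e-14.

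Triose phosphate isomerase keeps the triose phosphates in balance. *Tpi* (FBgn0086355, chromosome 3R, 30132981 to 30134599) was at 738.3, 914.6 and 1003 CPM at day 0 and at 274.6, 358.3 and 408.9 CPM with vehicle. Its log2 fold change of -1.36 had the largest standard error of the 10, 0.11, with an adjusted p of 1.33e-09, and the groups did not overlap. Glyceraldehyde phosphate dehydrogenase, the enzyme that makes NADH, comes from a pair of near-copy genes, *Gapdh1* (FBgn0001091, chromosome 2R, 7791901 to 7793380) and *Gapdh2* (FBgn0001092, chromosome X, 15868145 to 15869661). *Gapdh1* fell from 2783, 3258 and 3600 CPM at day 0 to 442.3, 569.9 and 632.5 CPM with vehicle, the largest drop of the 10, with a log2 fold change of -2.55 ± 0.11 and an adjusted p of 1.02e-13. *Gapdh2* was at 1673, 1912 and 2036 CPM at day 0 and at 972.8, 1244 and 1479 CPM with vehicle. Its log2 fold change, -0.63 ± 0.093 with an adjusted p of 4.06e-06, was the smallest of the 10. Reads that match both copies may have been dropped or split in the counting, so the levels of this pair are less certain than those of the other 8.

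The last 3 genes of the set, *Pgk*, *Eno* and *PyK*, had log2 fold changes close to one another. Phosphoglycerate kinase, which makes the first ATP, is encoded by *Pgk* (FBgn0250906, chromosome 2L, 2746880 to 2753068). *Pgk* was at 625.5, 731 and 784.2 CPM at day 0 and at 208.1, 259.4 and 281.6 CPM with vehicle. Its log2 fold change was -1.51 ± 0.094, with an adjusted p of 1.85e-11. *Eno* (FBgn0000579, chromosome 2L, 1724768 to 1729636) encodes enolase, which makes phosphoenolpyruvate. It was at 2155, 2377 and 2514 CPM at day 0 and at 712.3, 826.9 and 942.4 CPM with vehicle. The log2 fold change of *Eno* was -1.54 ± 0.078, with an adjusted p of 1.18e-12. *PyK* (FBgn0267385, chromosome 3R, 22367536 to 22372746) encodes pyruvate kinase, which ends the chain with pyruvate and ATP. It was at 1898, 1967 and 2090 CPM at day 0 and at 603.2, 687.8 and 738.1 CPM with vehicle. For *PyK* the log2 fold change was -1.54 ± 0.064, with an adjusted p of 6.36e-14, and for all 3 genes the groups were fully apart. *Ald1*, *Pgk* and *Eno* overlap exons of a gene that runs the other way (asRNA:CR44321, *Cwc25* and *Rrp40*). The sources used here do not say whether reads were counted by strand, so such reads cannot be told apart.

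**Figure D2:**
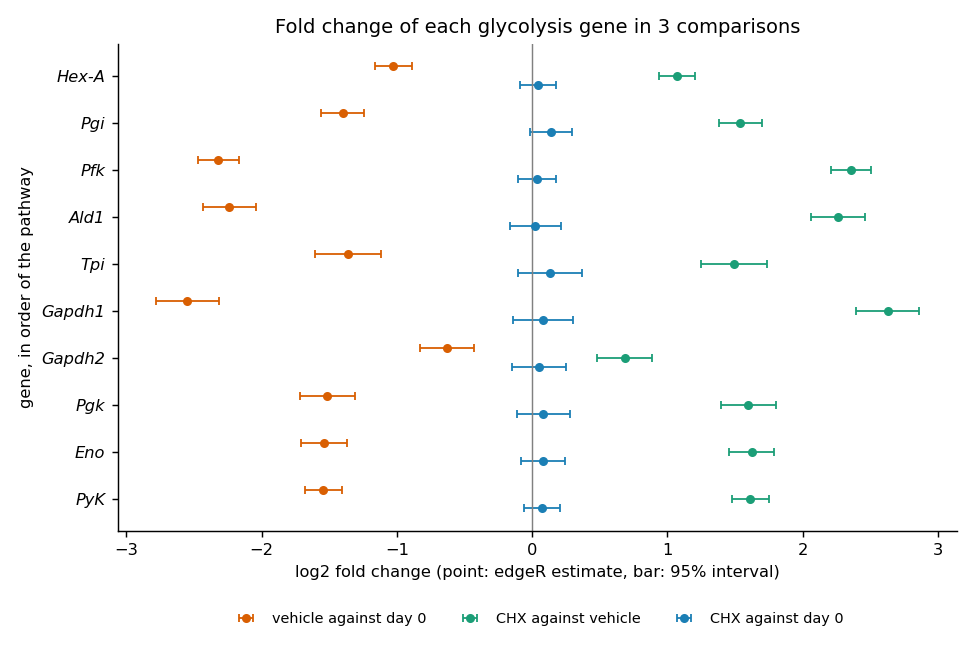
Log2 fold change (horizontal axis) of each glycolysis gene, in pathway order from the top, for vehicle against day 0, CHX against vehicle and CHX against day 0. Points are edgeR estimates and bars 95% intervals. The vehicle values run from -2.55 for *Gapdh1* to -0.63 for *Gapdh2*, the CHX against vehicle values from 0.68 to 2.63, and the intervals of CHX against day 0 all include 0.

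CHX against vehicle addresses which differences are absent when PT is held down, and all 10 transcripts were higher with CHX, without overlap of libraries. The summed level with CHX was 18510 ± 965.7 CPM. Of all features tested, 42% were higher with CHX at an adjusted p under 0.05, and 32.5% were higher without overlap. The median log2 fold change was 1.61 for the 10 genes and 0.022 for all features tested. This comparison shares its vehicle libraries with the one above, so the values of both are given side by side and not as separate evidence. *Gapdh1* was 6.18-fold higher with CHX, at 2829 to 3783 CPM, with a log2 fold change of 2.63 and an adjusted p of 5.28e-14. *Pfk* was 5.12-fold higher, at 638 to 812.4 CPM, with a log2 fold change of 2.36. *Ald1* was 4.80-fold higher, at 4315 to 5054 CPM. These 3 genes were also the ones with the largest drop from day 0 to vehicle.

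*Gapdh2* was 1.60-fold higher with CHX than with vehicle, at 1752 to 2142 CPM, with an adjusted p of 1.41e-06. *Hex-A* was 2.10-fold higher, at 428.9 to 538.9 CPM. The remaining 5 genes lay between these and the 3 genes above. *Pgi* reached 907.3 to 1015 CPM with a log2 fold change of 1.54, and *Tpi* 792.5 to 1132 CPM with 1.49. *Pgk* reached 657.7 to 859.9 CPM with a log2 fold change of 1.60, *Eno* 2255 to 2697 CPM with 1.62 and *PyK* 1902 to 2299 CPM with 1.61. Every CHX library was above every vehicle library for each of these genes. In summed level the 19 muscle genes were higher with CHX as well, and their part in these values was not tested.

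With library sizes in place of TMM factors, the median of all features moved to 0.49 for vehicle against day 0 and to -0.53 for CHX against vehicle. Of all 11051 features tested, 3384 were then lower in the former comparison and 3361 higher in the latter. *Gapdh2* was then at -0.14 (adjusted p = 0.095) and 0.13 (adjusted p = 0.116) and no longer passed, while 9 of 10 genes passed in both comparisons. Of these, *Hex-A* moved to -0.53 and 0.52, *Pgi* to -0.91 and 0.99 and *Tpi* to -0.87 and 0.94, and the median of the 10 to -1.04 and 1.05. With TMM factors and each name series taken alone, *Gapdh2* was at -0.47 for vehicle against day 0 in the hyphenated libraries (adjusted p = 0.00847). In the unhyphenated ones it was at -0.80 (adjusted p = 5.06e-05, edgeR for both). The difference between the series, -0.33 ± 0.17, did not pass (adjusted p = 0.36, edgeR). It was larger for *Gapdh1* (-0.44), *Pgk* (-0.38) and *Tpi* (-0.35), which did not pass either.

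CHX against day 0 asks what differs between flies before the rise in PT and flies of day 2 in which PT was held down. None of the 10 genes passed the edgeR test, none passed with DESeq2, and 0 of 10 had an unadjusted p under 0.05. Of all features tested 61, or 0.552%, passed in this comparison, all of them lower with CHX. All 10 estimates were above 0, from 0.024 for *Ald1* to 0.14 for *Pgi*, with an adjusted p of 0.9994 throughout. With library sizes only they ran from -0.034 to 0.078, and so fell on both sides of 0. The groups overlapped for every gene. Of all features tested 0.0633% were higher and 0.986% lower without overlap. The 95% intervals together ran from -0.17 (*Ald1*) to 0.37 (*Tpi*) on the log2 scale. The interval of *Pgi* was -0.018 to 0.29, with an unadjusted p of 0.074, the lowest of the 10. Differences within these intervals cannot be seen with 6 libraries a group.

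The *Gapdh* pair changed its order. In each library the ratio of *Gapdh2* to *Gapdh1* counts was taken, which does not depend on the scaling. It ran from 0.5655 to 0.606 at day 0 (median 0.5896), from 2.018 to 2.365 with vehicle (median 2.23) and from 0.5348 to 0.6195 with CHX (median 0.5736). *Gapdh1* thus had more counts in all day 0 and CHX libraries, and *Gapdh2*, whose exons are of nearly the same length (1443 against 1480 bases), in all vehicle libraries. The difference in the mean log2 ratio was 1.92 for vehicle against day 0 and -1.94 for CHX against vehicle, each with p = 0.002165 by a two-sided exact permutation test, the smallest p that 6 against 6 libraries can give (0.003247 adjusted over 6 tests). For CHX against day 0 it was -0.024, with an adjusted p of 0.54 in the same exact test. A share of reads that match both genes and were dropped or split would touch the size of this ratio.

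**Figure D3:**
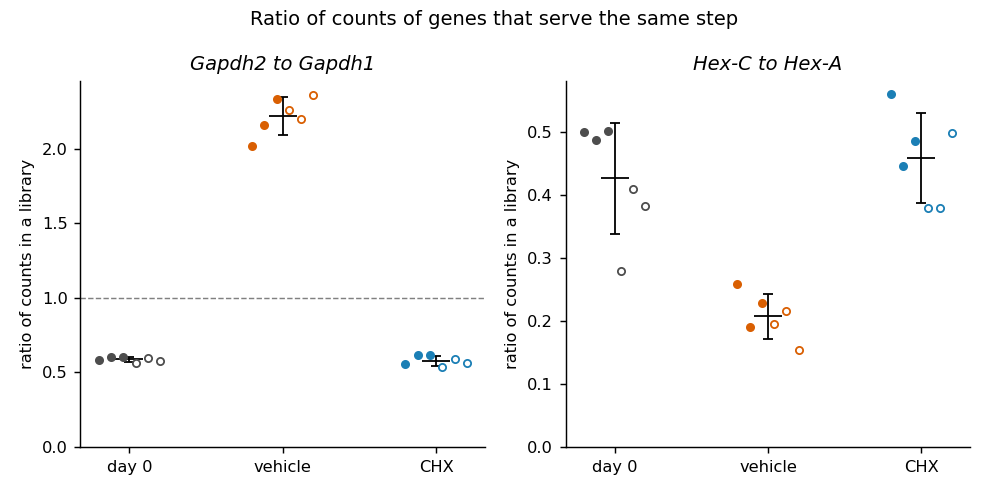
Ratio of counts within a library (vertical axes, starting at 0) for *Gapdh2* to *Gapdh1* and for *Hex-C* to *Hex-A*, by group. Points are libraries, filled for hyphenated names, and bars are mean and SD of 6. The *Gapdh* ratio lies above 1 (dashed line) in the vehicle libraries only, and the *Hex* ratio is 0.1544 to 0.2585 with vehicle against 0.2791 to 0.5007 at day 0.

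The hexokinase pair also shifted. *Hex-C*, known as the fat body hexokinase of the fly, was at 196.6 ± 33.69 CPM at day 0, 47.08 ± 7.278 CPM with vehicle and 218.9 ± 33.92 CPM with CHX. The ratio of *Hex-C* to *Hex-A* counts ran from 0.2791 to 0.5007, from 0.1544 to 0.2585 and from 0.3789 to 0.5602. *Hex-A* had more counts in all 18 libraries, and the share of *Hex-C* was lower in every vehicle library than in every other library. The mean log2 ratio differed by -1.03 for vehicle against day 0 and by 1.15 for CHX against vehicle (adjusted p = 0.003247 each, exact permutation test), and by 0.12 for CHX against day 0 (adjusted p = 0.54).

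The 10 transcripts did not move by equal amounts. Each gene was set against the geometric mean of the other 9 in the same library, and the groups were compared by the same exact permutation test, adjusted over 10 genes and 3 comparisons. Since the ratios share their denominators, a shift of one gene also moves the ratios of the others. With vehicle 4 genes were higher in relation to the other 9 than at day 0, 3 were lower and 3 did not pass. *Gapdh2* stood 1.09 higher on the log2 scale and *Hex-A* 0.66 higher, without overlap of libraries and with an adjusted p of 0.006494. *Tpi* stood 0.27 higher (adjusted p = 0.022) and *Pgi* 0.24 higher (adjusted p = 0.012), both with overlap. *Gapdh1* stood lower by a log2 difference of -1.04, *Pfk* by -0.78 and *Ald1* by -0.70, all without overlap and with an adjusted p of 0.006494. For *Pgk*, *Eno* and *PyK* the differences were 0.11, 0.081 and 0.080, and none passed.

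For CHX against vehicle the same ratio was higher for *Gapdh1* (1.05), *Pfk* (0.74) and *Ald1* (0.65). It was lower for *Gapdh2* (-1.11), *Hex-A* (-0.69) and *Pgi* (-0.17, adjusted p = 0.025). *Tpi* was at -0.22 with an adjusted p of 0.095 and did not pass. For CHX against day 0 none of the 10 passed the exact test, and the smallest unadjusted p was 0.1775, for *Pgi*. Within the name series *Pfk* stood at -0.93 and -0.63 for vehicle against day 0 (hyphenated and unhyphenated) and *Gapdh1* at -0.89 and -1.20.

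**Figure D4:**
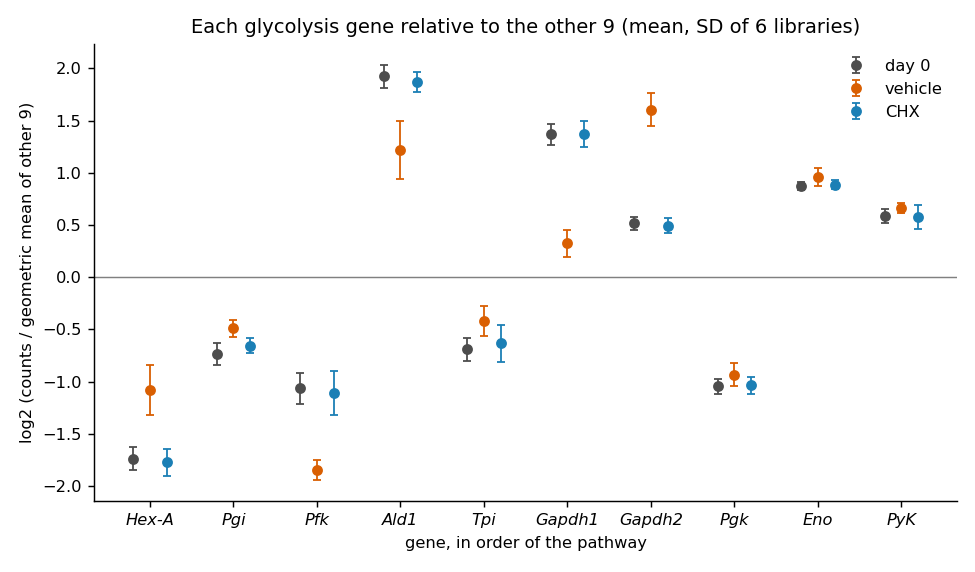
Log2 ratio of each glycolysis gene to the geometric mean of the other 9 in the same library (vertical axis), in pathway order, as mean and SD of 6 libraries for each group. Day 0 and CHX values lie close together for every gene, while with vehicle *Pfk*, *Ald1* and *Gapdh1* sit lower and *Hex-A* and *Gapdh2* higher.

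The 10 genes fell by less than the summed muscle transcripts, a sum set mainly by the most abundant of them. Against the summed counts of the 19 muscle genes, all 10 were higher with vehicle than at day 0, by 2.13 (*Gapdh1*) to 4.05 (*Gapdh2*) on the log2 scale, with an adjusted p of 0.003247 each by the exact permutation test. With CHX all 10 were lower against vehicle in this ratio, by -2.13 to -4.07, and against day 0 none passed. The muscle sum itself had a mean of 91730 CPM at day 0 and 3599 CPM with vehicle. A gene with an unchanged level would therefore also stand higher with vehicle in this ratio. The share of all features that would pass was not taken, so the count of 10 is not particular to these genes. The median log2 fold change of the 19 muscle genes was -4.76 for vehicle against day 0, and the smallest drops among them, named after their values were seen, were those of *sls* (-1.28) and *Mf* (-2.38), both smaller than that of *Gapdh1*. The 9 genes of the neuron and photoreceptor list that passed were lower, and the median of its 11 was -1.84. Of all features tested 41.1% were lower in this comparison.

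Levels of different genes were compared per kilobase of merged exons. At day 0 the order was *Gapdh1* (2182 CPM per kb), *Gapdh2* (1315), *Ald1* (1197), *PyK* (881), *Eno* (638), *Tpi* (574.5), *Pgi* (354.4), *Pgk* (339.6), *Pfk* (161.7) and *Hex-A* (112.3). The order with CHX was the same. In both groups the ranges overlapped between *Gapdh2* and *Ald1*, *Eno* and *Tpi*, and *Pgi* and *Pgk*. Within a library the order was often still kept: *Gapdh2* was above *Ald1* in 5 of 6 day 0 and 6 of 6 CHX libraries, *Eno* above *Tpi* in 6 of 6 and 4 of 6, and *Pgi* above *Pgk* in 5 of 6 of each group. With vehicle *Gapdh2* led at 850.1 CPM per kb, followed by *Gapdh1* (372.9), *PyK* (302.7), *Ald1* (253.7), *Tpi* (223) and *Eno* (219.5). The libraries of *Gapdh2* were apart from those of *Gapdh1*, while the ranges of neighbours from *Gapdh1* to *Eno* overlapped. At the low end *Hex-A* (55.25) was above *Pfk* (32.32) in all vehicle libraries, the reverse of the other groups.

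*Hex-A* and *Pfk*, the genes of the phosphorylating entry steps, had the lowest levels per length in each group. *Ald1* has 10 annotated transcripts, and its place depends on the length used. Per kilobase of the median transcript it was the most abundant of the 10 at day 0 (2821 CPM per kb) and with CHX (2869), ahead of *Gapdh1*.

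No difference of a group effect between the name series passed for any of the 10 genes, while 3.41% of all features passed for vehicle against day 0 and 3.57% for CHX against vehicle. The lowest adjusted p of the 10 was 0.13, for *Gapdh1* in CHX against vehicle, where the log2 fold change was larger by 0.50 ± 0.17 in the unhyphenated libraries. The pattern over all 18 libraries was nearly shared: the correlation of each gene with the mean of the other 9 ran from 0.94 (*Gapdh2*) to 0.9985 (*Eno*), as the libraries fall into 3 groups. After the group means and the name series were removed, *Pgi*, *Tpi*, *Gapdh1*, *Gapdh2*, *Pgk*, *Eno* and *PyK* still varied with the other 9 (0.61 to 0.82). *Hex-A* (-0.56), *Pfk* (-0.49) and *Ald1* (-0.16) did not. The closest pair after this removal was *Gapdh1* and *Pgk* (0.98), and the most opposed was *Pfk* and *Tpi* (-0.75). These correlations are descriptions over 18 libraries that also share depth and scaling.

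Among 3226 genes with a mean of at least 50 CPM, 517 (16%) had a correlation over 0.95 with the mean of the 10 over the 18 libraries. The 8 most alike were *Pdha* (0.9986), a subunit of pyruvate dehydrogenase, *ATPsynC* (0.9985) and *ATPsyngamma* (0.9975) of the ATP synthase, *Mdh2* (0.9983), the mitochondrial malate dehydrogenase, *ND-42* (0.9977) of complex I, and *UQCR-C1* (0.9977), *Cyt-c1* (0.9973) and *UQCR-C2* (0.9973) of complex III. The 10 genes themselves were left out of this ranking. *Pglym78*, a phosphoglycerate mutase gene and so part of the chain, came at place 11 (0.9968).

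The missing step and the other gene copies formed a list of 14 genes, of which 6 had enough counts to test. With vehicle 5 of these 6 were lower than at day 0 and none was higher, and with CHX 5 were higher than with vehicle and none was lower, while 42% of all features tested were higher and 41.3% lower. With library sizes only, 4 of the 6 were lower with vehicle and 3 higher with CHX, beside 3384 and 3361 of all 11051 features. *Pglym78*, the main phosphoglycerate mutase, was at 934.7 ± 57.68 CPM at day 0, 220 ± 29.97 CPM with vehicle and 1022 ± 114 CPM with CHX. Its log2 fold changes were -2.09 and 2.22. *Hex-C* had values of -2.05 and 2.21. *CG7069*, a further pyruvate kinase gene, had -1.69 and 2.00, and *CG7059*, a further mutase gene, -1.03 and 1.01. *CG7059* overlapped between the groups, and *Pglym78* overlaps *eIF2D*, which runs the other way.

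The supply of sugar to the chain was followed with 12 genes, of which 10 were lower with vehicle than at day 0 and 1 was higher, with a median log2 fold change of -1.22, while 41.1% of all features tested were lower and 41.8% higher. With CHX 10 were higher than with vehicle and 1 was lower, beside 42% and 41.3% of all features tested. With library sizes only, 8 of the 12 were lower with vehicle, beside 3384 of all 11051 features, and the median of the 12 was -0.72. *GlyP*, the glycogen phosphorylase that frees glucose phosphate from glycogen, had log2 fold changes of -2.85 and 2.98. Its levels were 3059 ± 473.8, 424 ± 31.04 and 3341 ± 321.5 CPM. The glycogen branching enzyme *AGBE* had -2.40 and 2.63, and glycogen synthase *GlyS* -1.73 and 1.83. The 1 exception was *sut1*, a sugar transporter gene, named after its values were seen, with 1.07 and -1.04.

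Downstream of the chain, 15 of 16 genes of pyruvate and glycerol phosphate metabolism were tested, and 11 were lower and 2 higher with vehicle than at day 0, with a median of -1.40, beside 41.1% and 41.8% of all features tested. With library sizes only, 9 were lower and 3 higher, with a median of -0.91, beside 3384 and 5893 of all 11051 features. *Gpo1* and *Gpdh1*, the mitochondrial and cytosolic glycerol phosphate dehydrogenases that form the shuttle of flight muscle, had the largest drops. *Gpo1* was at 1407 ± 70.38, 89.98 ± 30.47 and 1484 ± 107.5 CPM, with log2 fold changes of -3.99 and 4.06. *Gpdh1* was at 2683 ± 87.01, 265.9 ± 81.69 and 2831 ± 158 CPM, with -3.36 and 3.44. The pyruvate dehydrogenase subunits *muc* (-2.92 and 2.97) and *Pdhb* (-2.47 and 2.56) moved the same way. The 2 genes that rose with vehicle, named after their values were seen, were *Pdk* (0.59), the kinase that shuts pyruvate dehydrogenase off, and *Pdp* (0.54), its phosphatase.

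**Figure D5:**
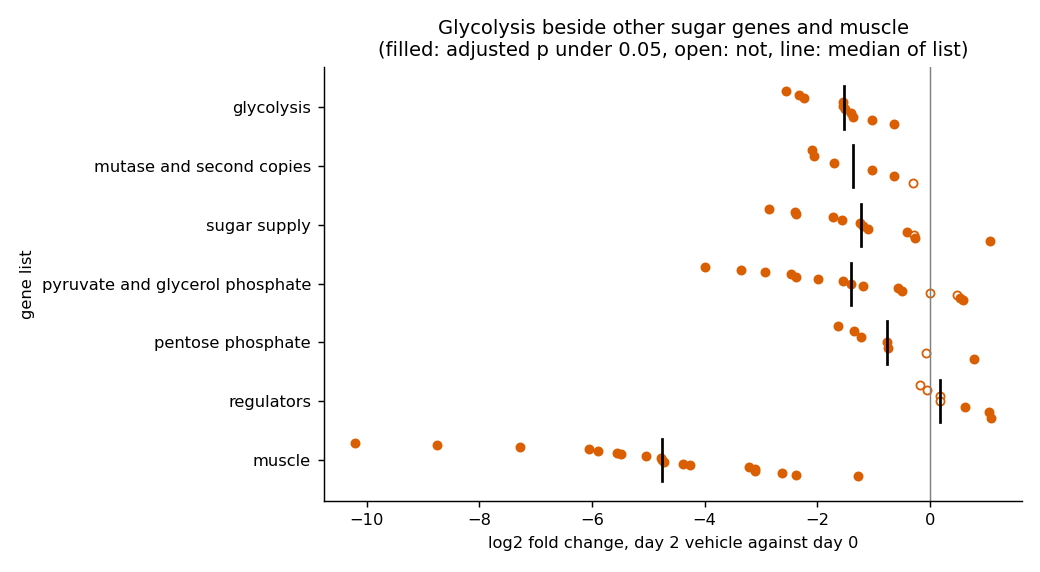
Log2 fold change of vehicle against day 0 (horizontal axis) for each tested gene of 7 lists. Points are genes, filled where the adjusted p was under 0.05, and black lines are list medians. The glycolysis genes (median -1.53) lie among the sugar supply and pyruvate genes (medians -1.22 and -1.40) and to the right of the muscle genes (median -4.76), and the regulators have a median of 0.18.

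The pentose phosphate pathway, which branches off before *Pgi* and makes NADPH, had 5 of 7 genes lower and 1 higher with vehicle, with a median of -0.76, beside 41.1% and 41.8% of all features tested. With library sizes only, 5 were lower and 2 higher, with a median of -0.27, beside 3384 and 5893 of all 11051 features. *Zw*, its entry enzyme, had log2 fold changes of -1.64 and 1.83, *Taldo* -1.35 and 1.60 and *Pgd* -1.22 and 1.40. *Rpe* rose with vehicle (0.78) and was lower with CHX than with vehicle (-0.68). Of 7 regulators of sugar metabolism and of the hypoxia response, 3 rose with vehicle and none fell, while 41.8% of all features tested were higher. *Hph*, the prolyl hydroxylase that marks the hypoxia factor for removal, had values of 1.08 and -1.14. *tgo*, the partner of that factor, had 1.04 and -1.08, and the sugar sensor *Mondo* 0.63 and -0.72. *ERR*, a nuclear receptor known to activate glycolysis genes in larvae, was at 0.18 for vehicle against day 0 and did not pass. With library sizes in place of TMM factors 6 of the 7 regulators rose, with a median of 0.67. Under that setting 5893 of all 11051 features tested were higher, and the median of all was 0.49. Upper quartile factors gave the regulators a median of -0.035, so the direction of the list rests on the scaling. For CHX against day 0 none of the genes of these lists passed with edgeR.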

How the data were processed

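Per the labels, each of 18 columns of the deposited count table is 1 library, and the authors gave whole-number counts without normalization; no sample column was left out (0 unused). Tools named in the submitters' processing notes are STAR 2.7.10a, HTSeq 0.12.3 and bcl2fastq 2.18.0.12, with the build BDGP6; the sources used here give no settings or strand use. Rows for reads outside genes (8.458% to 11.65% of a column) were left out. Genes were matched to the Ensembl 115 annotation (BDGP6.54).

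Fold changes came from edgeR 4.0.16 in R 4.3.3 (TMM, filterByExpr, robust quasi-likelihood fit with group and name series as terms, Benjamini-Hochberg adjustment over 11051 features, threshold 0.05), after a test on simulated data. Intervals are 95% intervals from the standard error. Ratios of counts were compared by exact permutation in scipy 1.17.1. Correlations were taken on log2 CPM (prior count 2). All 10 genes are named, as are up to 4 passing genes per other list with the largest change for vehicle against day 0 and the 8 most alike genes. The values of 1 gene that this rule names are not reported here. Members and lists were chosen with earlier results of these data known. Promoter motifs were not analysed here. Alternatives were RLE, upper quartile or no scaling factors, DESeq2 1.42.0, other count filters, the 20 most abundant genes left out, only the groups compared, no name series term, 1 name series at a time, a block for the replicate number, a log2 fold change over 1, each library left out in turn and, chosen after seeing the data, the median transcript length. Figures were drawn with matplotlib 3.10.9.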

Additional observations from a re-analysis of the deposited data

How the results depend on the processing

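The counts of glycolysis genes that passed (10 lower, 10 higher and 0) stayed within 1.5 times under the alternatives tried, and no value of the 10 genes changed direction where it had passed. Leaving out each library in turn left 10 of 10 lower for vehicle against day 0 and 10 of 10 higher for CHX against vehicle, and 7 to 8 and 6 to 7 genes that passed against the other 9. The difference in the mean log2 ratio of *Gapdh2* to *Gapdh1* then ran from 1.90 to 1.94 for vehicle against day 0. For CHX against vehicle it ran from -1.97 to -1.92. *Tpi* passed in the ratio to the other 9 for CHX against vehicle without vehicle replicate 5 (-0.26, adjusted p = 0.040), and *PyK* for vehicle against day 0 without day 0 replicate 2 (0.099, adjusted p = 0.030) or vehicle replicate 4 (0.098, adjusted p = 0.032), by the exact permutation test.

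Deviations from the group means of libraries with the same replicate number correlated at -0.29 to 0.20 between vehicle and either other group, and at -0.11 to 0.54 between CHX and day 0, where 5 of 6 pairs were over 0.1 (3 of 6 once the name series was removed). As not every pair was over 0.1 and the labels tie the numbers to no shared batch, the numbers were not taken as pairs. With the replicate number as a block, 10 genes still passed in both comparisons with vehicle and 0 in CHX against day 0, and the log2 fold changes of vehicle against day 0 ran from -2.55 to -0.63. The genes that passed against the other 9 went from 7 to 0 and from 6 to 0. There 6 pairs cannot give an exact p below 0.03125, and the p-values were then adjusted over 10 genes and 3 comparisons. Depth limited none of these values, since the smallest count was 3803, but genes near 0 could not be compared.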

Other observations

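*Ldh*, which encodes lactate dehydrogenase at the exit of the chain, was split by the name series within the vehicle group. Its levels at day 0 were 42.14 to 63.82 CPM and with CHX 50.41 to 84.9 CPM. With vehicle the 3 hyphenated libraries were at 26.33, 16.19 and 13.61 CPM and the 3 unhyphenated ones at 144.5, 89.39 and 115.9 CPM. The former lay below and the latter above all day 0 libraries. The log2 fold change of vehicle against day 0 was -1.71 in the hyphenated series (adjusted p = 1.57e-05, edgeR) and 1.18 in the unhyphenated one (adjusted p = 0.000122). The difference between the series was 2.90 ± 0.31 (adjusted p = 3.47e-05). Such a difference passed in 4 of 47 genes of the lists around the chain, against 3.41% of all features tested. The others, also named after their values were seen, were *Pepck2* (1.82), *CG7059* (1.28) and *Pdk* (0.58). This split was noticed after the values were seen, and what the hyphen marks is not given, so its cause was not tested.

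The gene copies known from testis were near 0 except in day 0 replicate 1. *Hex-t2* had 44 counts over the day 0 libraries, 39 of them in 1 library. *Ald2* had 30 counts, 18 of them in 1 library. *Pglym87* had 17 counts over the day 0 libraries, 3 with vehicle and 0 with CHX. The summed level of 9 testis genes was 26.43 CPM in day 0 replicate 1, while the day 0 median was 1.214 CPM. Without that library all 10 glycolysis genes still passed in both comparisons with vehicle.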
